A study of Danio rerio with 6 samples.

Results

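The genes described here encode the proteasome, the barrel-shaped protease that degrades proteins tagged with ubiquitin. Their transcripts were measured in whole brains of adult Tübingen zebrafish about 1 year old and of unspecified sex, 6 fish in all, with 1 brain on each Zebrafish Gene 1.0 ST array. The hypoxia group is 3 fish kept for 3 h in water that nitrogen gas had depleted of oxygen to 1.20 ± 0.6 mg/l, and the normoxia group is 3 fish at the ambient 6.6 ± 0.45 mg/l (the labels do not name the kind of error). The labels describe no other treatment and do not say how the normoxia fish were handled or for how long. Members are the genes whose symbol in the array's annotation begins with psma, psmb, psmc or psmd and a digit, taken from rows that name 1 gene only. The rule found 45 of 19260 genes, carried by 50 rows. Of the 45, 41 encode subunits of the particle, namely 9 of the alpha ring, 7 of the constitutive beta ring, 6 immune-type beta subunits, 7 ATPases, 4 non-ATPase subunits of the base and 8 of the lid. The remainder are 3 assembly chaperones with a psmd symbol (psmd5, psmd9 and psmd10) and psmc3ip, which matches by symbol only and is known as a recombination factor in meiosis.

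The core of the particle is a stack of rings. Alpha subunits form the outer rings and gate the entry of substrates, and beta subunits form the inner rings, where psmb5, psmb6 and psmb7 carry the proteolytic sites. A regulatory cap, made of a base with an ATPase ring and a lid, binds ubiquitin chains, removes them and unfolds the substrate. In mammals interferon induces immune-type beta subunits that take the place of the constitutive catalytic ones and shift the peptides produced towards those presented on class I molecules. When oxygen is ample, the alpha subunits of hypoxia-inducible factor are hydroxylated, tagged with ubiquitin and destroyed by the proteasome, and in neurons the particle also clears damaged and synaptic proteins.

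The values are the deposited log2 values, and differences are hypoxia minus normoxia. The arrays were not equal in spread, which bears on every value below. The interquartile range of gene values was 1.52, 1.66 and 1.87 log2 units in hypoxia 1, 2 and 3, against 2.28, 1.52 and 1.99 in normoxia 1, 2 and 3. Genes of high mean level tended to be lower in hypoxia and genes of low mean level higher: the median log2 difference was -0.19 for the 1814 genes with a mean level of 9 to 10 and 0.10 for the 1504 genes at 5 to 6. Array values are therefore given beside the difference for many proteasome genes, while other members are given by their difference only. The 9 neuronal markers measured had a mean log2 value of 10.42 to 10.83 in hypoxia arrays and of 10.47 to 11.11 in normoxia arrays. In whole brain, fewer cells of a type and less RNA per cell cannot be told apart.

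Most constitutive proteasome genes had lower mean values in hypoxia, and no single one passed the test. Of the 35 particle genes other than the immune-type ones, 33 averaged lower, with a median log2 difference of -0.35, which was -0.20 without hypoxia 1. Of the 45 genes, 39 averaged lower in hypoxia and 6 higher, where 61.1% of all genes averaged lower. The median of the 45 was -0.24, against -0.08 over all genes. None passed limma's threshold (adjusted p from 0.72 to 0.996), which 0.00519% of all genes did. In simulated data this fit called 25 of 100 genes changed by 1 log2 unit, a larger change than any member showed. At an unadjusted p under 0.05, 7 members were lower and none was higher, where 5.76% of all genes were lower and 0.903% higher. Leaving out 1 array moved the 7 to 0 without hypoxia 1 (2.09% of all genes), 4 without hypoxia 2 (3.36%) and 15 without hypoxia 3 (6.03%). The count was 5 without normoxia 1 (3.18%), 13 without normoxia 2 (16.3%) and 1 without normoxia 3 (2.77%). In 9 genes every hypoxia brain was below every normoxia brain, where this held for 9.02% of all genes, and in no member was it the other way round, as it was for 2.33% of all genes. These were psma4, psma2b, psma1, psma8, psmb5, psmb7, psmd12, psmd11a and psmd8. Among genes with a mean level of 8 to 9, 15 of 15 particle subunits were lower, with a median of -0.42, beside 2991 of 3857 genes and a median of -0.17. At 9 to 10 the counts were 9 of 10 subunits, with a median of -0.44, and 1406 of 1814 genes, with a median of -0.19. The gap was smaller at 7 to 8, with 7 of 8 subunits lower and a median of -0.20, beside 3894 of 5517 genes and -0.13. At 5 to 6, 0 of 3 subunits were lower, beside 499 of 1504 genes. At 6 to 7 it was 3 of 3, beside 2151 of 5286 genes, and at 10 to 11 it was 2 of 2, beside 425 of 557.

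**Figure D1:**
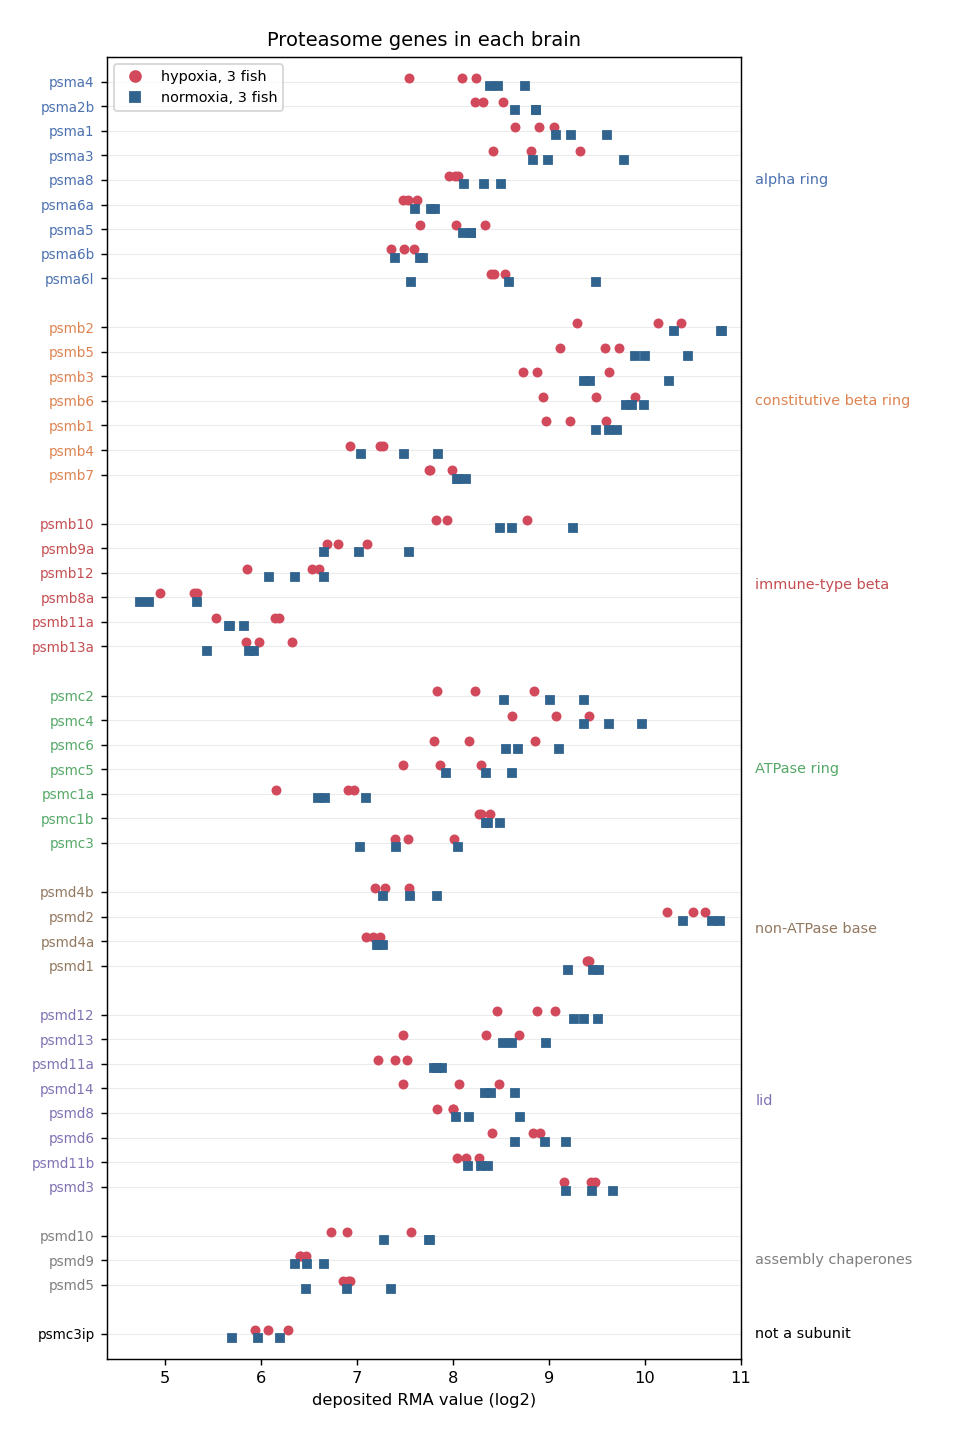
Deposited log2 values (x axis) of the 45 genes (rows, grouped by subunit class and sorted by difference), with hypoxia fish as red circles and normoxia fish as blue squares, 3 points each. Mean values are lower in hypoxia for all genes of the alpha ring, constitutive beta ring and lid. The groups are separate in 4 of 9, 2 of 7 and 3 of 8 of these genes. They overlap in all other genes, among them all immune-type beta, ATPase and non-ATPase base genes.

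**Figure D2:**
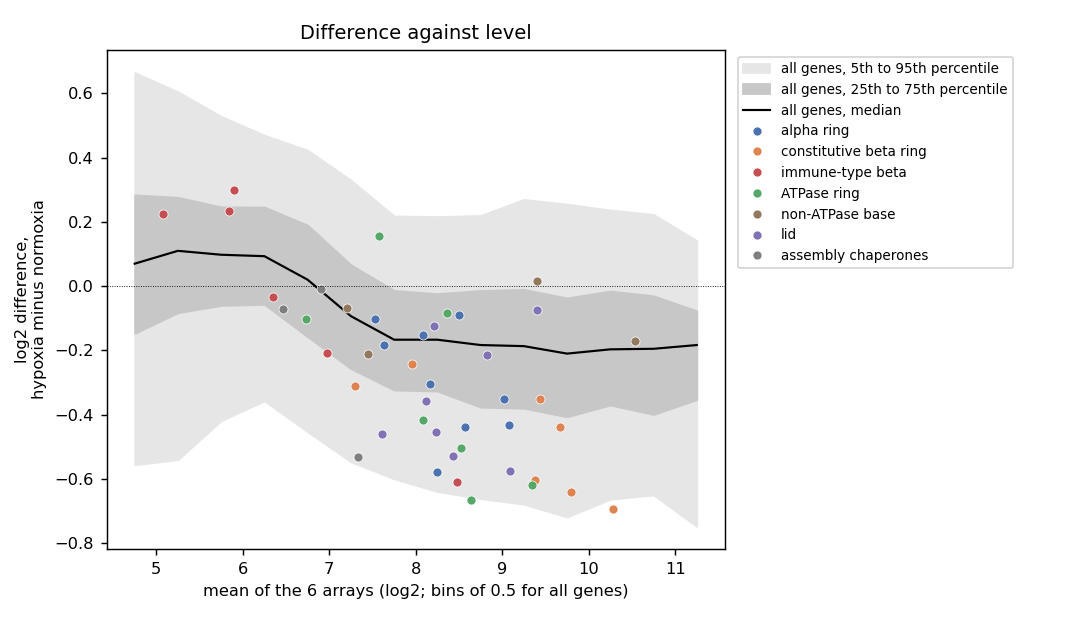
Log2 difference (y axis, hypoxia minus normoxia) against the mean of the 6 arrays (x axis, log2), with proteasome genes as points coloured by class over the percentile bands of all genes in bins of 0.5. The black line, the median of all genes, is above 0 at low levels and below 0 at high levels, and most proteasome genes at levels above 8 lie below it.

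These counts moved with the scaling. The medians of gene values were 7.33, 7.32 and 7.38 in hypoxia 1, 2 and 3, against 7.60, 7.40 and 7.45 in normoxia 1, 2 and 3. Medians over all rows were 6.59, 6.54 and 6.45 in hypoxia and 6.28, 6.60 and 6.38 in normoxia, and equalising these was not tried. With arrays shifted to equal medians of gene values, the median of all genes moved from -0.08 to 0.06. With this shift 29 members were lower and 16 higher, beside 7877 and 11383 of all genes. After cyclic loess, a normalization that removes shifts between arrays that depend on level, 30 were lower and 15 higher, where 49.6% of all genes were lower. The median of the 45 was then -0.13, against 0.00 over all genes, and of the 35 constitutive particle genes 25 were lower, with a median of -0.15. Groups did not overlap in 3 members after cyclic loess, where 7.34% of all genes had no overlap and were lower. Of the 3, psma2b and psmd11a were among the 9 named above and psmb2 was not, and the rest of the 9 overlapped. After cyclic loess 2 members had an unadjusted p under 0.05, where 4.7% of all genes did and were lower.

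In the alpha ring all 9 genes were lower, with a median log2 difference of -0.30. In their range of mean level 77.3% of all genes were lower, with a median of -0.17. After cyclic loess 6 of the 9 were lower, with a median of -0.12. psma4 had values of 7.54, 8.09 and 8.24 in hypoxia 1, 2 and 3, against 8.39, 8.47 and 8.75 in normoxia 1, 2 and 3. Its log2 difference was -0.58 (SE 0.23, limma adjusted p = 0.72). psma2b had 8.23, 8.31 and 8.52 in hypoxia and 8.86, 8.65 and 8.87 in normoxia, a difference of -0.44 (SE 0.18). In both genes the groups were apart, though by less than the spread within hypoxia, and after cyclic loess they stayed apart in psma2b only. psma1 had 8.65, 8.90 and 9.05 in hypoxia and 9.23, 9.07 and 9.60 in normoxia, a difference of -0.43 (SE 0.21), with hypoxia 3 just under normoxia 2. psma8, for which RefSeq lists psma7 as a synonym, had a difference of -0.30 (SE 0.18) with no overlap, and psma3, psma6a, psma5 and psma6b had differences from -0.35 to -0.10 with overlap.

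psma6l, an alpha ring gene named after its values were seen, rests on 3 rows that disagree. The first row had 9.11, 8.84 and 8.63 in hypoxia, against 7.28, 10.27 and 8.40 in normoxia. The second had 9.23, 8.92 and 8.73 against 7.34, 10.41 and 8.52. The third had 7.29, 7.52 and 7.82 in hypoxia and 8.06, 7.79 and 8.82 in normoxia. The first 2 rows spanned about the same wide range within normoxia, highest in normoxia 2 and lowest in normoxia 1, and had differences of 0.21 and 0.20, while the third had a difference of -0.68, the sign of the other alpha genes. The difference of the mean of the rows, -0.09 (SE 0.41), therefore joins rows of opposite sign.

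The constitutive beta ring had a median of -0.44 with 7 of 7 genes lower. In their range of mean level 76.3% of all genes were lower, with a median of -0.17. All 7 stayed lower under equal array medians, quantile normalization and cyclic loess (medians -0.30, -0.23 and -0.24). psmb5, the subunit with chymotrypsin-like activity, had 9.12, 9.73 and 9.58 in hypoxia, against 10.00, 9.90 and 10.45 in normoxia, a difference of -0.64 (SE 0.23, limma adjusted p = 0.72). No hypoxia brain reached a normoxia brain in the deposited values, whereas the groups overlapped after cyclic loess. psmb6, with caspase-like activity, had 8.94, 9.49 and 9.90 in hypoxia and 9.99, 9.86 and 9.80 in normoxia, a difference of -0.44 (SE 0.25). Here hypoxia 3 lay among the normoxia fish and the difference came from hypoxia 1 and 2. psmb7, with trypsin-like activity, had 7.75, 7.76 and 7.99 in hypoxia and 8.05, 8.14 and 8.04 in normoxia. This smaller difference of -0.24 (SE 0.17) was without overlap in the deposited values and with overlap after cyclic loess.

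Among the structural beta genes, psmb2 had 9.29, 10.14 and 10.38 in hypoxia and 10.79, 10.30 and 10.80 in normoxia. Its difference of -0.69 (SE 0.29) was the largest in size among the 45 genes in the deposited values, and normoxia 2 lay just below hypoxia 3. psmb3 had 8.73, 8.88 and 9.63 in hypoxia and 10.25, 9.37 and 9.43 in normoxia, a difference of -0.60 (SE 0.31). Its groups overlapped through hypoxia 3, and without normoxia 1 the difference was -0.32. psmb1 (-0.35) and psmb4 (-0.31) also had overlapping groups. In all 7 genes of this ring hypoxia 1 was the lowest of the 6 arrays, which was so in 36.9% of genes with a mean level of 7 or more. For psmb4 this holds for the mean of its 2 rows. The first of them had 6.00, 5.98 and 5.82 in hypoxia and 6.29, 5.56 and 6.65 in normoxia, with normoxia 2 lowest. Without hypoxia 1 the class median was -0.21, and without hypoxia 3 it was -0.67.

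**Figure D3:**
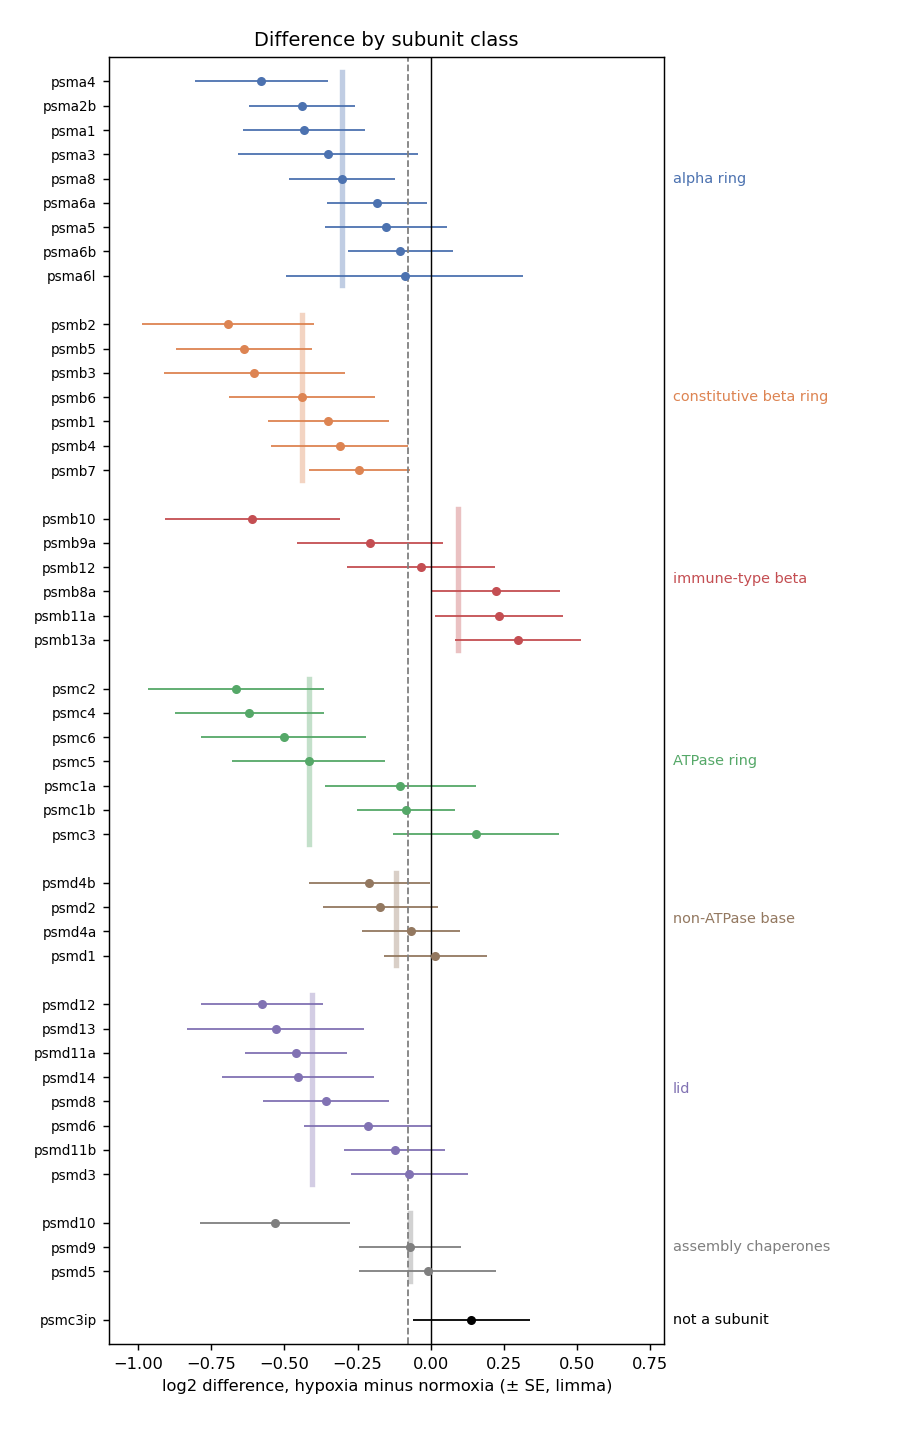
Log2 difference (x axis, hypoxia minus normoxia, with limma's SE as bars) for each of the 45 genes, grouped by class. Pale vertical bars are class medians, from -0.44 for the constitutive beta ring to 0.10 for the immune-type beta genes, the dashed line is the median of all genes (-0.08), and no gene passed the adjusted threshold.

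Immune-type beta genes were split. Of 6 genes, 3 had a lower and 3 a higher mean in hypoxia, none had separate groups, and the class median of 0.10 was -0.03 without normoxia 2 and 0.00 after cyclic loess. psmb13a, psmb8a, psmb12 and psmb9a are consecutive protein-coding genes in RefSeq's GRCz12tu annotation, and psmb11a is next to psmb5. psmb10, the counterpart of psmb7, had 7.94, 7.82 and 8.77 in hypoxia, against 8.62, 8.49 and 9.25 in normoxia, a difference of -0.61 (SE 0.30, limma adjusted p = 0.72). Hypoxia 3 exceeded normoxia 1 and 2, so the groups overlapped. psmb9a, the counterpart of psmb6, had 6.69, 6.80 and 7.11 in hypoxia and 7.02, 6.66 and 7.54 in normoxia, a difference of -0.21 (SE 0.25). psmb8a, the counterpart of psmb5, had 4.95, 5.33 and 5.30 in hypoxia and 4.84, 4.74 and 5.33 in normoxia, a difference of 0.22 (SE 0.22). In all 6 immune-type genes normoxia 3 was the highest normoxia brain, level in psmb8a with hypoxia 2.

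Of the other 3, psmb12 had 6.53, 5.86 and 6.61 in hypoxia and 6.36, 6.08 and 6.66 in normoxia, a difference of -0.03 (SE 0.25) whose sign turned with equal array medians. psmb13a had 6.32, 5.85 and 5.98 in hypoxia and 5.44, 5.88 and 5.93 in normoxia, a difference of 0.30 (SE 0.21). psmb11a, whose mammalian relative is specific to the thymus, had 6.15, 6.19 and 5.53 in hypoxia and 5.68, 5.67 and 5.82 in normoxia, a difference of 0.23 (SE 0.22). The 3 genes with a higher mean in hypoxia, psmb8a, psmb11a and psmb13a, all had mean levels between 5 and 6. There 1005 of 1504 genes had a higher mean in hypoxia.

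Immune-type and constitutive catalytic subunits were also set against each other within each brain. This can show unequal change of array values only, and not relative abundance. The log2 value of psmb8a minus that of psmb5 was -4.17, -4.40 and -4.28 in hypoxia, against -5.16, -5.16 and -5.12 in normoxia. The groups were apart, with means of -4.28 ± 0.12 in hypoxia and -5.15 ± 0.02 in normoxia (SD, n = 3 each). This difference of 0.86 had an exact two-sided permutation p of 0.1, the smallest that 3 against 3 fish allow, and 0.3 after adjustment over the 3 pairs. psmb5 alone differed by -0.64, and psmb8a by 0.22 (SE 0.22). The genes differ in level, with means of 5.08 for psmb8a and 9.80 for psmb5, where the median level of all genes was 7.40. Whether the array responds fully to change at the low level of psmb8a was not tested. The median difference of all genes was 0.11 at 5.0 to 5.5 and -0.21 at 9.5 to 10.0, which sets a contrast of 0.32 beside the 0.86. The difference of 0.86 came to 0.55 after cyclic loess, with overlap and an exact permutation p of 0.3. For psmb9a minus psmb6 the difference was 0.23 (exact permutation p = 0.5), where medians of all genes at these levels give a contrast of 0.23, with -2.25, -2.69 and -2.79 in hypoxia and -2.97, -3.20 and -2.26 in normoxia. For psmb10 minus psmb7 it was -0.37 (exact permutation p = 0.4), with 0.19, 0.06 and 0.78 in hypoxia and 0.57, 0.35 and 1.21 in normoxia. The pairs of psmb9a and psmb10 overlapped between groups.

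**Figure D4:**
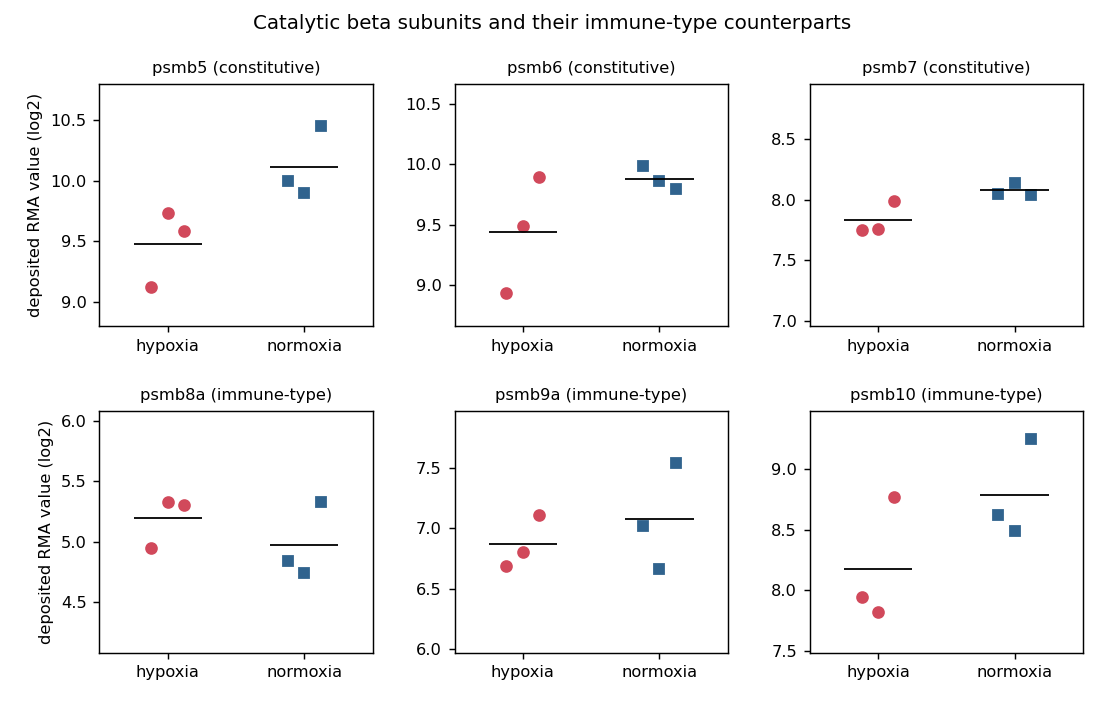
Deposited log2 values (y axis, each panel spanning 2 log2 units) of the catalytic beta genes psmb5, psmb6 and psmb7 (top) and of their immune-type counterparts psmb8a, psmb9a and psmb10 (bottom), with hypoxia fish as red circles, normoxia fish as blue squares and group means as lines. Hypoxia values lie below normoxia values for psmb5 and psmb7, and overlap with them in the other 4 genes.

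Of the 7 ATPase genes 6 were lower, and none had separate groups. In their range of mean level 70.6% of all genes were lower, with a median of -0.13. The class median was -0.42. The median was -0.22 without hypoxia 1 and -0.26 without normoxia 1, and after cyclic loess 5 of 7 were below 0 (median -0.24). psmc4 had 8.61, 9.07 and 9.42 in hypoxia, against 9.97, 9.63 and 9.36 in normoxia, a difference of -0.62 (SE 0.25, limma adjusted p = 0.72). psmc2 had 7.83, 8.23 and 8.84 in hypoxia and 9.36, 8.53 and 9.01 in normoxia, a difference of -0.67 (SE 0.30). psmc6 had 7.80, 8.17 and 8.85 in hypoxia and 9.10, 8.55 and 8.68 in normoxia, a difference of -0.50 (SE 0.28). In these 3 genes hypoxia 1 was lowest, normoxia 1 highest, and hypoxia 3 fell among the normoxia brains. With array spread as a covariate the differences were -0.45 for psmc4, -0.32 for psmc2 and -0.23 for psmc6, and without hypoxia 1 psmc6 was at -0.27. psmc5 had a difference of -0.42 at a mean level of 8.09. The paralogues psmc1a and psmc1b stood at -0.10 and -0.08, at mean levels of 6.73 and 8.36.

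psmc3 was the 1 ATPase gene with a higher mean in hypoxia (0.16, SE 0.28), and its 2 rows disagreed. The first row had 7.48, 7.24 and 7.58 in hypoxia, against 7.70, 7.69 and 7.62 in normoxia, so every hypoxia value was lower and the difference was -0.24. The second had 8.55, 7.56 and 7.49 in hypoxia and 6.36, 8.41 and 7.19 in normoxia, a difference of 0.55. Its spread within normoxia was wide, with normoxia 1 lowest and normoxia 2 highest, as in the first 2 rows of psma6l.

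The non-ATPase subunits of the base hold ubiquitin receptors and scaffolds. Of 4 genes 3 averaged lower, with a median of -0.12. In their range of mean level 75.8% of all genes were lower, with a median of -0.17. The class median became 0.02 with equal array medians, 0.04 after quantile normalization and 0.02 after cyclic loess. It was -0.07 without normoxia 1 or normoxia 3 and -0.18 without normoxia 2. psmd4b, a ubiquitin receptor gene, had 7.19, 7.29 and 7.54 in hypoxia, against 7.55, 7.27 and 7.83 in normoxia (-0.21, SE 0.21). psmd4a, its paralogue, had 7.24, 7.17 and 7.09 in hypoxia and 7.27, 7.21 and 7.22 in normoxia (-0.07, SE 0.17). The scaffold gene psmd2 had 10.11, 10.41 and 10.59 in hypoxia and 10.82, 10.20 and 10.71 in normoxia in its first row, and a difference of -0.17 (SE 0.20) over its 2 rows. The differences of psmd2 and psmd4a turned positive after quantile normalization and cyclic loess. psmd1, the other large scaffold, had 9.42, 9.41 and 9.40 in hypoxia and 9.46, 9.20 and 9.52 in normoxia (0.02, SE 0.18). Its hypoxia values lay within the range of normoxia and were nearly equal to each other.

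In the lid all 8 genes were lower, with a median of -0.41. In their range of mean level 77.6% of all genes were lower, with a median of -0.175. Of the 8 lid genes 6 were lower after cyclic loess, with a median of -0.22. Without hypoxia 1 the median was -0.19. psmd12 had 8.46, 8.88 and 9.06 in hypoxia, against 9.36, 9.26 and 9.51 in normoxia, a difference of -0.58 (SE 0.21, limma adjusted p = 0.72). psmd11a had 7.22, 7.40 and 7.52 in hypoxia and 7.89, 7.83 and 7.80 in normoxia, a difference of -0.46 (SE 0.17). Both encode scaffold subunits, and in both the groups were separate, though after cyclic loess in psmd11a only. The paralogue psmd11b had a difference of -0.12 (SE 0.17) with overlap; the difference between the paralogues was not tested. psmd13 had 7.48, 8.34 and 8.69 in hypoxia and 8.97, 8.61 and 8.52 in normoxia (-0.53, SE 0.30), with hypoxia 3 above normoxia 2 and 3, and its difference was -0.19 without hypoxia 1. psmd14, the deubiquitinase of the lid, had a difference of -0.45 (SE 0.26) that was -0.19 without hypoxia 1, psmd8 one of -0.36 without overlap, and psmd6 and psmd3 stood at -0.21 and -0.07.

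The assembly chaperones differed among themselves. psmd10 had 6.90, 7.56 and 6.73 in hypoxia, against 7.28, 7.76 and 7.75 in normoxia, a difference of -0.53 (SE 0.26, limma adjusted p = 0.72). psmd9 had 6.41, 6.47 and 6.41 in hypoxia and 6.66, 6.48 and 6.36 in normoxia (-0.07), and psmd5 had 6.85, 6.93 and 6.91 against 7.35, 6.90 and 6.47 (-0.01). The signs of psmd9 and psmd5 turned with equal array medians, which left psmd10 as the chaperone gene with a lower mean under each of the scalings tried. psmc3ip had 6.28, 6.07 and 5.94 in hypoxia and 5.97, 6.20 and 5.70 in normoxia, a difference of 0.14 (SE 0.20).

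Class averages were also read in each brain. Averaged as the deviation from each gene's own mean, the 41 particle subunits stood at -0.34, -0.14 and 0.06 in hypoxia 1, 2 and 3, against 0.18, 0.02 and 0.22 in normoxia 1, 2 and 3. Hypoxia 3 was therefore above normoxia 2, and the separation of the group means rested on hypoxia 1 and 2. Over all 45 genes, 20 of the 39 with a lower mean came closer to 0 by over 1.5 times, or turned positive, without hypoxia 1. The constitutive beta ring ran lowest in hypoxia 1, at -0.58, followed by the lid at -0.45 and the ATPases at -0.42, while all genes together stood at -0.08 there. The immune-type genes had another order, with -0.01, -0.13 and 0.11 in hypoxia and -0.11, -0.18 and 0.32 in normoxia. After cyclic loess the constitutive beta ring stood at -0.34, -0.12 and 0.03 in hypoxia and at 0.00, 0.23 and 0.20 in normoxia. Differences between classes were not tested.

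**Figure D5:**
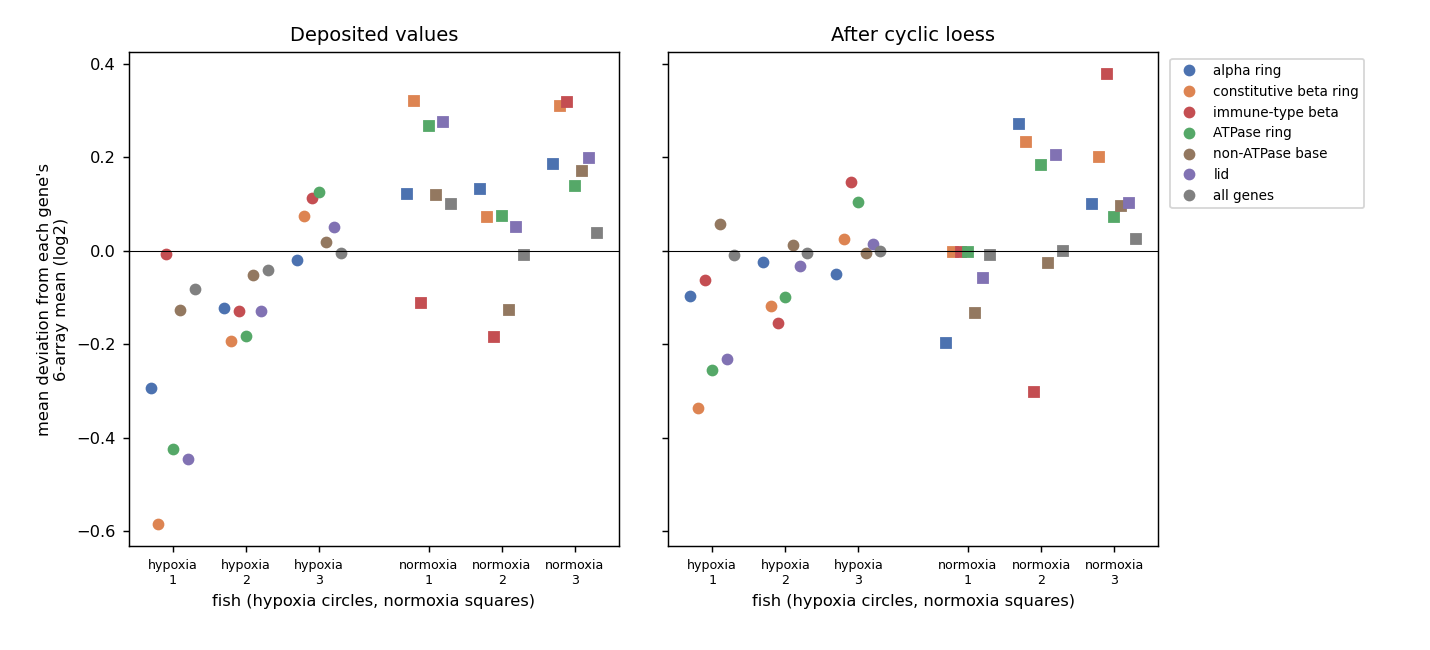
Mean deviation of each class from its genes' own 6-array means (y axis, log2) in each fish (x axis), for deposited values (left) and after cyclic loess (right). Hypoxia 1 is lowest for the alpha ring, constitutive beta ring, ATPases and lid in the deposited values, and the immune-type genes are highest in normoxia 3 in both panels.

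Genes that work with the proteasome were read from 5 lists, where 61.1% of all genes averaged lower. The share was 70.6% at mean levels of 7 to 8 (median difference -0.13) and 77.5% at 8 to 9 (median difference -0.17). Of 11 measured genes listed as activators, inhibitors and assembly factors 10 were lower, with a median of -0.60 at a median level of 8.10. The list holds sem1 (-0.62), which is itself a lid subunit but lies outside the symbol rule. In 5 of the 11, sem1 among them, the unadjusted p was under 0.05, where 5.76% of all genes had one and were lower. The 5 became 0 without hypoxia 1 (2.09% of all genes), 2 without hypoxia 2 (3.36%) and 6 without hypoxia 3 (6.03%). The count was 1 without normoxia 1 (3.18%), 8 without normoxia 2 (16.3%) and 0 without normoxia 3 (2.77%). The median of the list was -0.39 without hypoxia 1. After cyclic loess 9 of the 11 were lower, with a median of -0.44. psme1, a subunit of the activator ring that interferon induces in mammals, had 7.92, 8.36 and 9.13 in hypoxia, against 9.99, 8.87 and 10.59 in normoxia, a difference of -1.35 (SE 0.44, limma adjusted p = 0.72). This is beyond the range of the 45 genes of the rule. In the deposited values hypoxia 3 of psme1 exceeded normoxia 2, while after cyclic loess its groups were separate. psme2, its partner, had 6.80, 7.12 and 7.27 in hypoxia and 8.14, 7.23 and 8.21 in normoxia, a difference of -0.80 (SE 0.28). Both had normoxia 2 well below the other normoxia brains.

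All 20 measured genes of ubiquitin and shuttling were lower, with a median of -0.31 at a median level of 8.81. At levels of 8 to 9, 77.5% of all genes were lower, with a median of -0.17. After cyclic loess 15 of the 20 were lower, where 49.6% of all genes were. Without hypoxia 1 the median of the list in the deposited values was -0.17. txnl1, a thioredoxin-like protein bound to the cap, had 9.74, 10.43 and 10.64 in hypoxia and 11.22, 10.69 and 10.85 in normoxia (-0.65, SE 0.26). usp14, the deubiquitinase that rides on the cap, had 8.10, 8.48 and 8.37 in hypoxia and 8.59, 8.62 and 8.91 in normoxia (-0.39, SE 0.19). Groups were separate in both, and after cyclic loess in txnl1 only. In the deposited values 4 of the 20 had separate groups and were lower, beside 9.02% of all genes. All 13 genes around the VCP segregase were lower, with a median of -0.29, and 9 of 13 after cyclic loess. The median was -0.17 without normoxia 1 and -0.48 without normoxia 2. Its adaptor genes ubxn1 (-0.59, SE 0.19) and faf2 (-0.68, SE 0.26) had separate groups. In the deposited values 5 of the 13 had separate groups and were lower, beside 9.02% of all genes. The NFE2L1 and NFE2L2 axis controls proteasome gene transcription in mammals, and 11 of its 13 genes averaged lower (median -0.15). Its median level was 7.66, and at levels of 7 to 8 the share of all genes lower was 70.6%. The median difference of the list was -0.04 without normoxia 1, -0.09 without hypoxia 1 and -0.26 without hypoxia 3. After cyclic loess 9 of the 13 were lower, with a median of -0.03. nfe2l1b had 9.08, 9.14 and 9.57 in hypoxia and 10.19, 9.34 and 9.92 in normoxia (-0.55, SE 0.25). The protease gene ddi2, whose product cleaves NFE2L1 in mammals, had a difference of -0.48 (SE 0.23). Neither had separate groups in the deposited values, while after cyclic loess the groups were separate in nfe2l1b and overlapped in ddi2. No gene of these lists passed the adjusted threshold.

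The interferon and antigen presentation list, set beside the immune-type subunits, had 17 of 24 genes lower (70.8%) and a median of -0.23. Its median level was 7.35, and at levels of 7 to 8 the share of all genes lower was 70.6%. The median of the list was -0.11 without hypoxia 1, -0.09 without normoxia 1, -0.39 without normoxia 2 and -0.06 without normoxia 3. After cyclic loess 16 of the 24 were lower, with a median of -0.16, where 49.6% of all genes were lower. irf8, a transcription factor of myeloid cells, had 7.04, 7.17 and 7.28 in hypoxia, against 7.90, 7.57 and 8.15 in normoxia (-0.71, SE 0.20, limma adjusted p = 0.72). b2m, the light chain of class I molecules, had a difference of -0.80 (SE 0.30), which was -0.49 without normoxia 3. In the deposited values groups were separate for irf8 and overlapped for b2m, and after cyclic loess they were separate in both. Of the 24 genes, 1 had separate groups and was lower in the deposited values, beside 9.02% of all genes. Of 15 markers of microglia and other leukocytes 11 were lower (73.3%), at a median level of 8.06, beside 77.5% of all genes at levels of 8 to 9. The mean log2 value of the 15 was 7.87 to 8.19 in hypoxia arrays and 7.88 to 8.62 in normoxia arrays. An unadjusted limma p under 0.05 was found for 3, all lower, where 5.76% of all genes had one and were lower. These were mpeg1.1 (-1.39), spi1b (-0.87) and p2ry12 (-0.45). mpeg1.1 had 8.13, 8.17 and 8.71 in hypoxia and 10.18, 8.52 and 10.49 in normoxia. The 3 became 1 without hypoxia 1 (2.09% of all genes), 6 without normoxia 2 (16.3%) and 0 without normoxia 3 (2.77%). Another 4 of the 15 were higher, namely ptprc (0.51), mpx (0.50), lyz (0.45) and cd4-1 (0.19). All 6 markers of radial glia and astroglia were lower, at 9.56 to 10.05 in hypoxia arrays and 9.78 to 10.80 in normoxia arrays. Their median level was 10.68, and at levels of 10 to 11 the share of all genes lower was 76.3%. With equal array medians 4 of these 6 were lower, and without normoxia 1 also 4. Of 5 oligodendrocyte markers 4 were lower, and of 9 neuronal markers 5 were lower. All 6 markers of blood and vessel were lower, at a median level of 7.44, beside 70.6% of all genes at levels of 7 to 8. Of 7 markers of pituitary and eye 3 were lower, and these varied widely between fish of the same group. Their mean log2 value was 7.07 to 10.11 in hypoxia arrays and 6.48 to 10.25 in normoxia arrays. The median difference of 0.06 was -0.86 without hypoxia 3 and 1.20 without normoxia 3. The part of cell composition in the proteasome differences was not tested.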

How the data were processed

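RNA of single brains (300 ng of total RNA) from 3 hypoxia and 3 normoxia fish was hybridised to 1 array each. Per the design text, the authors corrected background by RMA and normalized by quantiles, with Affymetrix Expression Console per the submitters' processing notes. The deposited values are log2 values, as judged from their range of 1.62 to 14.34. No source used here gives the probe set level, and array medians stayed unequal (6.28 to 6.60 over all rows). Of 75212 rows, 20806 named 1 gene. Rows of the same gene were averaged. limma 3.58.1 in R 4.3.3 (lmFit, eBayes, 6 arrays, no covariate) was fitted to 19260 genes, with Benjamini-Hochberg adjustment over all of them, a threshold of 0.05 and no filter on dim genes, and tested on simulated data. Catalytic pairs were compared by exact permutation (scipy 1.17.1). Arrays give no count of molecules, so read depth does not apply. The number of fish limits precision, and rows of the same gene can disagree. The design text calls the fish biological replicates.

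Groups came from sample titles. Members and lists were chosen with earlier results of these data known. psma2b was placed in the alpha ring by its symbol. Values are given for every immune-type beta gene and psmb5, psmb6 and psmb7, for the 3 genes with the smallest p in each other class, and for members with a higher mean in hypoxia. For the 2 with the smallest p in each companion list, either array values or only the difference and its SE are given. psma6l, sem1 and the leukocyte markers given by name were added after their values were seen. The remaining members are named by their differences. Results were recomputed with each array left out, with replicate number as a block, and with equal array medians, quantile and cyclic loess normalization, a minimum mean level of 6, the brightest row per gene and trended robust moderation. Array spread as a covariate, both normalizations for the catalytic pairs, and all alternatives for the companion lists, marker lists and remaining members were added after the data were seen. The order of neighbouring genes came from RefSeq's GRCz12tu table. Sequences and genome coordinates were not used here.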

Additional observations from a re-analysis of the deposited data

How the results depend on the processing

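No proteasome gene passed the adjusted threshold under any alternative tried, and 36 to 39 of the 45 averaged lower in hypoxia with 1 array left out. Over all genes limma called 0 to 17 when single arrays were dropped, 2 under quantile normalization, 0 after cyclic loess, 0 with a minimum mean level of 6, 0 with trended robust moderation and 3 at a threshold of 0.1, against 1 as reported. Same-numbered arrays were not treated as paired, as the sample titles give only a replicate number. Their deviations from group means correlated at -0.336, 0.10 and 0.196, and those of arrays with unlike numbers from -0.471 to 0.417. These correlations cannot show whether fish were paired. With a replicate block 1 gene was called and 39 members were lower. Of the members, 6 were lower with an unadjusted limma p under 0.05, beside 4.8% of all genes.

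The count of members lower with an unadjusted p under 0.05 was 0 once arrays had equal medians (2.55% of all genes). It was 1 under quantile normalization (4.23%) and 2 after cyclic loess (4.7%). With 1 array left out it was 0 to 15, where the share of all genes ran from 2.09% to 16.3%. Members lower without overlap numbered 3 of 45 under each of these scalings. Over all 19260 genes this held for 884 with equal medians, 1308 under quantile normalization and 1414 after cyclic loess. Equal array medians gave a median for the 45 of -0.10, one for the alpha ring of -0.16 and one for the non-ATPase base of 0.021. After quantile normalization the medians were -0.14 for the particle subunits, -0.15 without the immune-type genes, -0.11 for the alpha ring and 0.041 for the non-ATPase base. After cyclic loess they were -0.15 without the immune-type genes, -0.12 for the alpha ring and 0.022 for the non-ATPase base. A minimum level of 6 left 3 immune-type genes, with a median of -0.21. With array spread as a covariate the ATPase median was -0.17. With 1 array left out the median without the immune-type genes ran from -0.42 to -0.20, the lid ran from -0.46 to -0.19 and the assembly chaperones from -0.23 to 0.01. The cause of these shifts was not tested.

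Of the 45 members and 10 companion genes named, 13, all of them members, turned sign under a setting that keeps all arrays, none of them called. With equal array medians psma6b was 0.037, psma6l 0.051, psmb12 0.11, psmc1a 0.037, psmc1b 0.057, psmd11b 0.017, psmd3 0.067, psmd4a 0.073, psmd5 0.13 and psmd9 0.07. After quantile normalization psma5 was 0.0048, psma6b 0.034, psma6l 0.051, psmc1b 0.098, psmd11b 0.056, psmd2 0.048, psmd3 0.15, psmd4a 0.034 and psmd5 0.051. After cyclic loess psma5 was 0.025, psma6b 0.031, psma6l 0.099, psmc1b 0.10, psmd11b 0.059, psmd2 0.034, psmd3 0.12, psmd4a 0.011 and psmd5 0.005. With array spread as a covariate psmb12 was 0.080, psmc1a 0.021, psmc3 -0.17, psmd3 0.066 and psmd5 0.088, and by its brightest row psma6l was 0.20. With 1 array left out psma5 ran from -0.32 to 0.02, psma6l from -0.58 to 0.38, psmb12 from -0.18 to 0.20, psmb9a from -0.41 to 0.027, psmc1a from -0.25 to 0.16, psmc3 from -0.078 to 0.43, psmd1 from -0.08 to 0.08, psmd3 from -0.20 to 0.045, psmd5 from -0.23 to 0.21 and psmd9 from -0.14 to 0.01. Arrays count no molecules, so read depth does not apply here. The values are limited by the 3 fish per group and, in psma6l and psmc3, also by rows of opposite sign.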

Other observations

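A further 3 rows name a proteasome gene together with another gene and entered no comparison. The row shared by psma2a and psma2b had log2 values of 7.17, 7.02 and 7.27 in hypoxia, against 7.27, 7.26 and 7.30 in normoxia. The row shared by psmb13a, psmb8a and tap2a had 6.73, 6.44 and 7.06 in hypoxia and 7.05, 6.38 and 7.10 in normoxia. The row shared by mlx and psmc3ip had 6.97, 7.22 and 7.04 in hypoxia and 7.29, 7.20 and 7.24 in normoxia. The row of psma2a and psma2b had hypoxia 3 at the value of normoxia 1, so it lacked the separation seen for psma2b alone.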
